A study of Caenorhabditis elegans with 2 samples.

Results

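Sites of HRDE-1 chromatin immunoprecipitation were examined at 9 genes of the cell cycle engine of Caenorhabditis elegans. They were the 4 cyclin genes cyb-1, cyb-3, cya-1 and cye-1 and the 5 kinase genes cdk-1, air-1, air-2, plk-1 and wee-1.3. The genes were chosen by name and all 9 were found among the 19985 protein-coding genes of the annotation. HRDE-1, also called WAGO-9, is a nuclear Argonaute protein of the germ line that is guided by small RNAs and known for inherited silencing. Strain YL557 stably expresses it with a GFP-FLAG tag at the C-terminus. Chromatin came from whole hermaphrodite young adults grown for 48 hours from larvae synchronised by starvation at L1, so the cells behind a site cannot be told apart. By the sample description an antibody against GFP was used, while the antibody field names hrde-1. There was 1 group with 2 biological replicates and no control list was analysed here, so values are described and no test between groups was possible.

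Cyclins bind and activate cyclin-dependent kinases, and the pairs drive entry into DNA replication and into division. CDK-1 with B-type cyclins drives mitosis and the meiotic divisions of the oocyte, and inhibitory kinases such as WEE-1.3 hold it back until the oocyte matures. Aurora and Polo kinases then act on centrosomes, chromosomes and the spindle. In the adult hermaphrodite most dividing cells are in the germ line, where these genes are known for germ cell proliferation and for supplying the oocyte.

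The data were lists of called sites on genome build ce11, each with a summit and a signal value, the authors' score on a scale that is not stated. The pooled list held 30000 candidates, and the lists of replicates 1 and 2 held 24269 and 30000. The fourth list held the 1341 sites left after the authors filtered on the irreproducible discovery rate (IDR), a measure of how sites recur between replicates; they are called IDR peaks here. Signal values were compared only within 1 list, whose medians were 23.0 for the pooled candidates, 10.3 for replicate 1 and 18.2 for replicate 2. The lists hold no read counts, so depth is unknown and signal values carry no interval. A site belonged to a gene when its summit lay between 500 bp upstream of the annotated start and 500 bp past the annotated 3′ end. It was at the 3′ end or at the start when it lay within 500 bp of it on either side.

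The 4 IDR peaks at 3′ ends were the strongest sites at an end or start of any of the 9 genes, so the 30 bases around each summit are shown 5′ to 3′ on the strand of the gene, with the summit base in capitals. All 4 genes lie on the plus strand, and the sequence is from the RefSeq genome WBcel235, the same assembly as ce11. The windows are chrIII:9748939-9748968 for cdk-1, chrIV:10737211-10737240 for cyb-1, chrV:15397370-15397399 for cyb-3 and chrV:8223616-8223645 for air-1.
cdk-1: aatgatcgctgcagtGattccaatattcgt
cyb-1: cctgcgcaatgacgcGacgaacttaaacca
cyb-3: atttcagattaatgaCtaatgtggagactt
air-1: tgctttctgctaaaaGccaaaactcaaaca

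All 4 pooled summits lay past the annotated 3′ end, between 32 and 102 bp beyond it.

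Every one of the 9 genes had at least 2 pooled candidates, and 5 of the 9 had an IDR peak. Among all protein-coding genes, 55.7% had a pooled candidate and 8.23% had an IDR peak. The 5 genes with a peak were cyb-3, air-1, cye-1, cdk-1 and cyb-1, with signal values of 142, 138, 134, 109 and 107. Each had 1 peak, and all 5 peaks were among the 670 strongest of the IDR list, at ranks 247, 267, 291, 539 and 556 of 1341. The other 4 genes, plk-1, wee-1.3, air-2 and cya-1, had pooled candidates of up to 62.3, 53.6, 39.6 and 35.8, all under the lowest value in the IDR list of 73.95. Every IDR peak outranks every other pooled candidate by signal, so an IDR peak here is a strong pooled site. All 5 summits lay within 100 bp of a summit in each replicate, 27 to 85 bp from the nearest of replicate 1 and 2 to 97 bp from the nearest of replicate 2. Of the 1212 IDR summits at protein-coding genes, 87.8% did so.

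**Figure D1:**
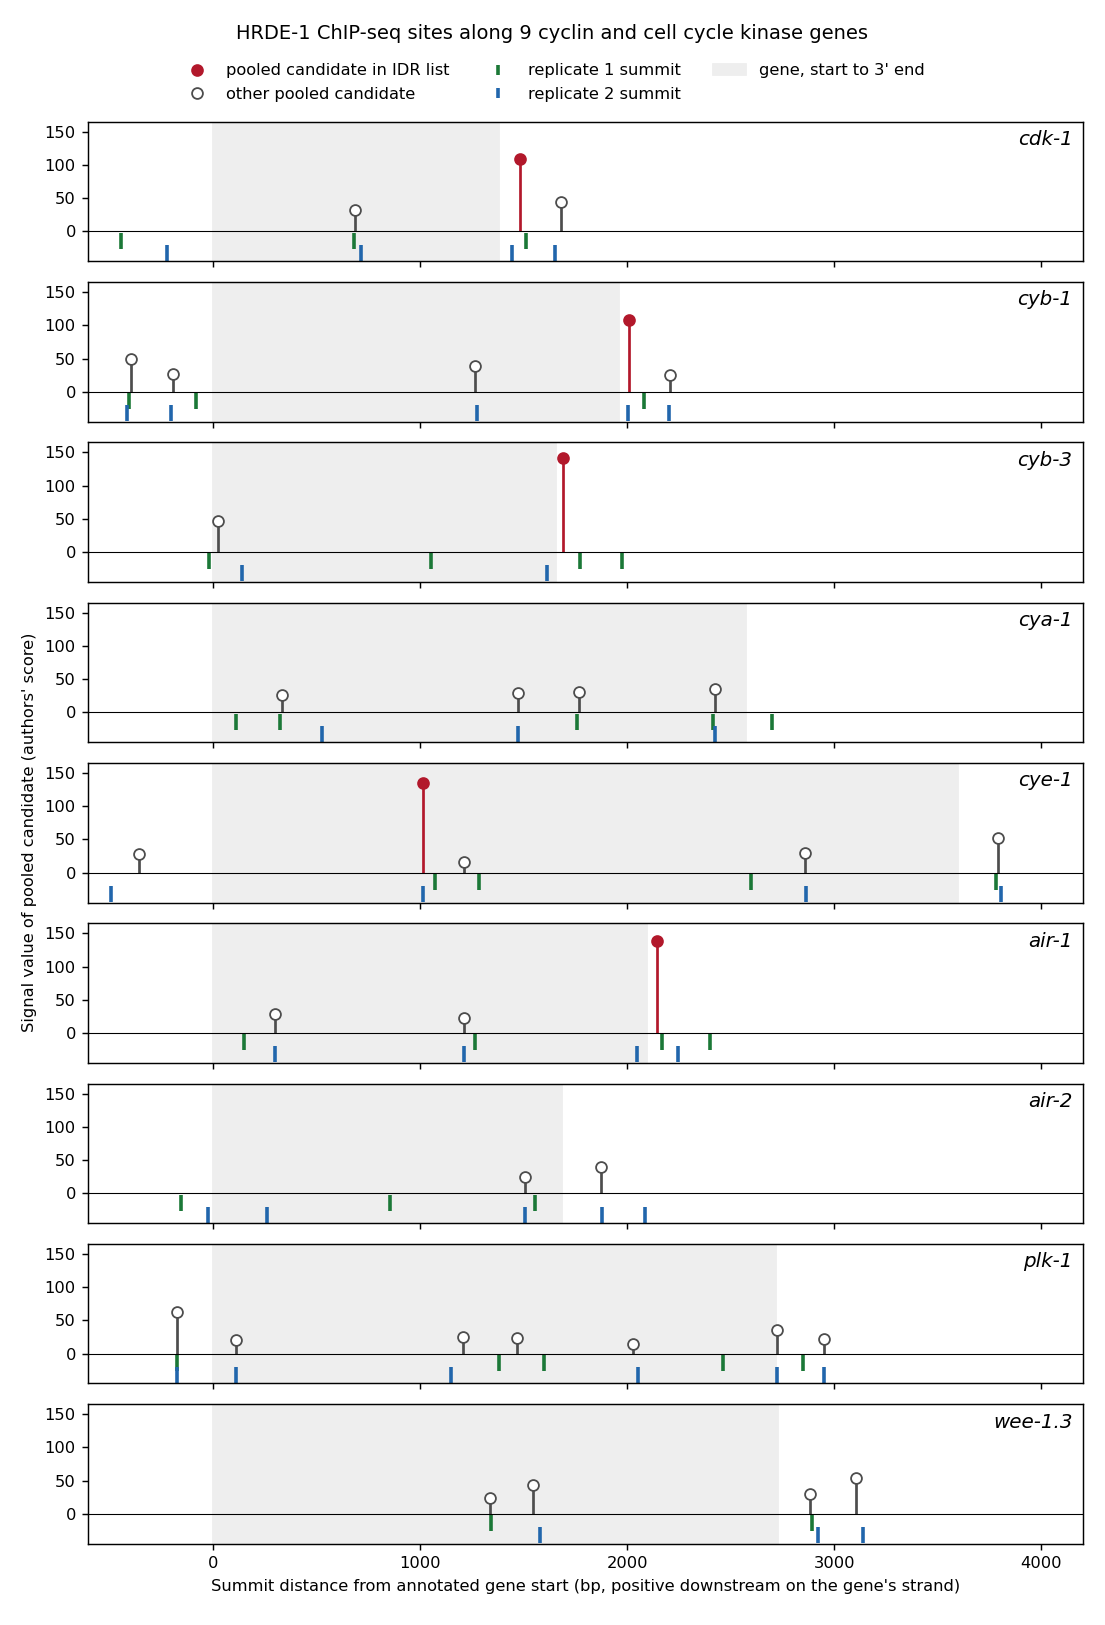
Signal value (vertical axis, the authors' score) of each pooled candidate along the 9 genes, against the distance of its summit from the annotated start in bp (horizontal axis). Filled points are IDR peaks, open points other pooled candidates, ticks the summits of each replicate, and grey the gene; the peaks of cdk-1, cyb-1, cyb-3 and air-1 stand just right of the grey, and that of cye-1 inside it.

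At 4 of the 9 genes the IDR peak lay at the 3′ end and at none of them at the start. Of all protein-coding genes, 5.41% had an IDR peak at the 3′ end and 2.96% at the start. In the pooled list all 9 genes had a candidate at the 3′ end and 6 of 9 at the start, against 39.7% and 32.0% of all protein-coding genes. In the list of replicate 1 all 9 had a site in the window and at the 3′ end and 7 had one at the start, against 56.3%, 34.8% and 27.4% of all protein-coding genes. In that of replicate 2 the counts were also 9, 9 and 7, against 56.9%, 39.7% and 32.0%. The 9 genes span 1381 to 3599 bp with a median of 2095 bp, close to the median of 2026 bp over all protein-coding genes. Among the 8782 protein-coding genes within that range of spans, the shares with an IDR peak were 8.09% in the window, 5.55% at the 3′ end and 2.84% at the start. When a summit was counted only for the nearest protein-coding gene, 3 of the 9 genes had an IDR peak and 2 had it at the 3′ end, against 5.53% and 3.25% of all protein-coding genes. Among the strongest 1341 sites of replicate 2 alone, 1 of the 9, cye-1, also had a site at the start, against 2.83% of all protein-coding genes.

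**Figure D2:**
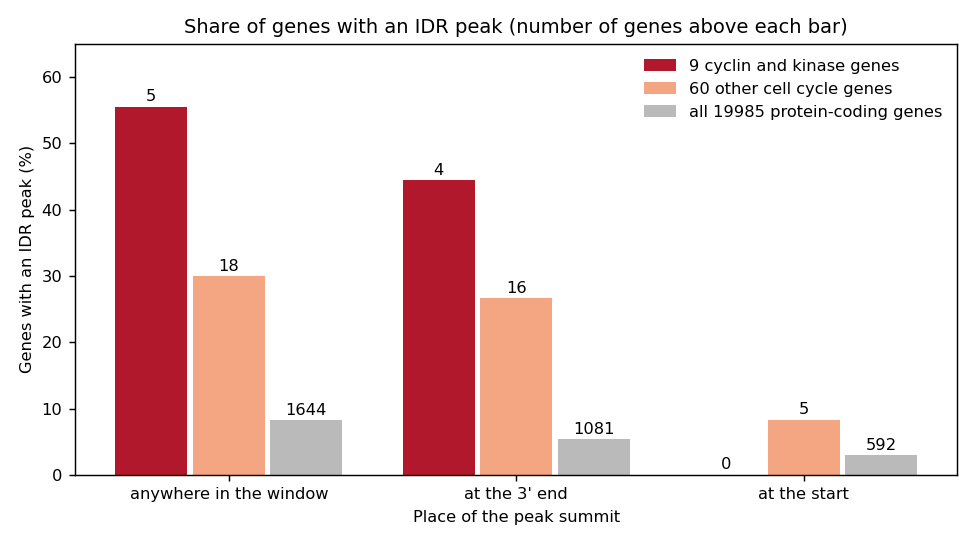
Percentage of genes with an IDR peak (vertical axis) anywhere in the window, at the 3′ end and at the start, for the 9 cyclin and kinase genes, 60 other cell cycle genes and all 19985 protein-coding genes. The numbers above the bars count genes: 5, 4 and 0 of the 9 cyclin and kinase genes.

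The catalytic kinase gene cdk-1 (WBGene00000405, chrIII:9747472-9748852, plus strand) encodes the kinase that B-type cyclins activate. Its IDR peak had its summit at 9748954, 102 bp past the 3′ end, with a signal of 109. The strongest 3′ end site had a signal of 41.2 in replicate 1 and 71.8 in replicate 2, at ranks 341 and 732 of those lists. The start had sites of 10.7 in replicate 1, at rank 10993, and of 11.4 in replicate 2, near the bottom of that list at rank 29953, and no pooled candidate. These 2 summits lay 220 bp apart. That of replicate 1 was inside iff-1, a gene on the other strand, and that of replicate 2 was upstream of the start of iff-1. The peak cannot be given to cdk-1 alone: T05G5.4, a gene on the same strand, starts upstream of the summit, which lies 20 bp inside it.

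The B-type cyclin genes cyb-1 and cyb-3 encode partners of CDK-1 and both had a peak at the 3′ end and none at the start. At cyb-1 (WBGene00000865, chrIV:10735216-10737177, plus strand) the summit at 10737226 lay 49 bp past the 3′ end with a signal of 107. In the replicates that 3′ end site had signals of 38.5 in replicate 1 and 75.9 in replicate 2. The start of cyb-1 also held candidates. The strongest was 12.9 in replicate 1, 80 bp upstream, and 43.3 in replicate 2, 413 bp upstream. Replicate 1 also had a site of 10.4 located 404 bp upstream. The strongest pooled one at this start, at 49.9, lay 394 bp upstream and 234 bp upstream of the start of orc-5 on the other strand. orc-5 encodes a subunit of the origin recognition complex, so this site lies between 2 starts that face away from each other. The next gene downstream of cyb-1, grl-21, starts 248 bp past the peak summit on the same strand.

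At cyb-3 (WBGene00000868, chrV:15395696-15397353, plus strand) the summit at 15397385 had the highest signal of the 9 genes, 142. It lay 32 bp past the 3′ end of cyb-3 and exactly on the annotated 3′ end of fbxa-199, an F-box gene that runs towards it on the other strand. The called interval was 117 bp wide, against a median of 456 bp in the IDR list. The 3′ end site had a signal of 43.3 in replicate 1 and 103 in replicate 2, ranks 296 and 260. The start had sites of 9.55 in replicate 1 and 41.7 in replicate 2, both below the 3′ end site of the same list. These 2 start summits lay 156 bp apart.

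The Aurora A kinase gene air-1 (WBGene00000098, chrV:8221488-8223582, plus strand), whose product acts at centrosomes and the spindle, had its peak with the summit at 8223631, 49 bp past the 3′ end. The signal was 138, and no other annotated gene outside the piRNA class lay within 500 bp of that summit. In the replicates it was 53.5 in replicate 1, the highest value that any of the 9 genes had there, at rank 144, and 91.8 in replicate 2, at rank 369. The start had sites of 9.59 in replicate 1 and 24.9 in replicate 2, with summits 146 bp apart. The gene also holds 2 snoRNA genes, K07C11.11 and K07C11.12. A pooled candidate of 22.7 lay 80 bp upstream of K07C11.12, and one of 28.5 lay 494 bp upstream of K07C11.11.

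The Aurora B kinase gene air-2 (WBGene00000099, chrI:5937195-5938881, plus strand) encodes the kinase of the chromosomal passenger complex. It had no IDR peak, and its strongest pooled candidate, at 39.6, lay 189 bp past the 3′ end. Replicate 2 had a site of 34.5 at nearly the same place, 191 bp past the 3′ end, at rank 3773. The nearest replicate 1 summit lay 321 bp away, and its strongest 3′ end site was 7.47, below its start site of 10.9. The 2 Aurora genes thus ranked far apart among the 19985 protein-coding genes by their strongest site: air-1 was 208th in replicate 1 and 489th in replicate 2, and air-2 was 7240th and 3832nd.

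The E-type cyclin gene cye-1 (WBGene00000871, chrI:6780799-6784397, plus strand), whose product acts with CDK-2 in the entry into DNA replication, had its peak inside the gene. The summit at 6781814 lay in an intron, 1015 bp downstream of the start, with a signal of 134. It also lay 11 bp inside the tRNA gene C37A2.t1, which is on the same strand within that intron. In the replicates the site had 27.4 in replicate 1 and 108 in replicate 2, at ranks 995 and 227. Many tRNA genes have near-identical copies, and whether reads of other copies add to this site was not tested. A second candidate of cye-1 lay 192 bp past the 3′ end with a pooled signal of 52.2, and had 23.3 in replicate 1 and 35.5 in replicate 2. Replicate 2 further had a site of 65.4 located 490 bp upstream of the start, at rank 905, while replicate 1 had none within 500 bp. The nearest replicate 1 summit lay 107 bp further upstream, just outside that zone. The pooled list had a start candidate of 27.3, located 355 bp upstream. The replicate 2 summit lay closer to the start of pqn-21, on the other strand, than to that of cye-1.

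The A-type cyclin gene cya-1 (WBGene00000863, chrIII:9106699-9109272, minus strand) had the lowest top signal of the 9 genes in the pooled list and in replicate 2, while air-2 had the lowest in replicate 1. Its 4 pooled candidates ran from 26.5 to 35.8, and the strongest lay in the 3′ UTR, 148 bp before the 3′ end and 42 bp past the 3′ end of dos-1, which overlaps it on the other strand. The replicates gave opposite orders. In replicate 1 the 3′ end had 12.4 and the start 16.5, and in replicate 2 the 3′ end had 28.6 and the start had no site. Replicate 2 did have a site of 15.3 inside the gene, 529 bp from the start and so just outside the zone.

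The Polo kinase gene plk-1 (WBGene00004042, chrIII:8101348-8104069, plus strand), whose product acts in nuclear envelope breakdown and spindle assembly, had the most pooled candidates, 7. It was the only one of the 9 genes with a stronger site at the start than at the 3′ end in the pooled list and in both replicates. The 3′ end had 35.9 in the pooled list, 10.3 in replicate 1 and 22.2 in replicate 2, and the start had 62.3, 11.3 and 49.8. The 2 values of replicate 1 are close, and with 1 value per zone in a replicate no error can be set on them. The start summit lay at 8101176 in all 3 lists, 172 bp upstream of the start and 50 bp upstream of the non-coding RNA gene C14B9.15 on the same strand. It was the 1954th of the 30000 pooled candidates, the nearest of the 4 genes without a peak to the IDR list.
The 30 bases around the start summit (chrIII:8101161-8101190, plus strand, the summit base in capitals) are given because it is the strongest site at a start among the 9 genes in the pooled list. In the replicates other starts had higher values, cye-1 with 65.4 in replicate 2 and cya-1 and cyb-1 with 16.5 and 12.9 in replicate 1.
plk-1: acggttcgctgcgagAcctgcgcccgccaa

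The gene wee-1.3 (WBGene00006940, chrII:9713737-9716467, minus strand) encodes the inhibitory kinase of CDK-1 that keeps oocytes arrested. It had 4 pooled candidates and none at the start in any list. The strongest, at 53.6, lay 376 bp past the 3′ end and 65 bp upstream of the tRNA gene Y53C12A.t1 on the same strand. Replicate 2 had 42.8 close to it, and replicate 1 had its nearest summit 215 bp away, so the site was not matched within 100 bp there. Inside the gene, coding exons held candidates of 44.2 and 24.0, the weaker 6 bp from the highest site of replicate 1, at 20.6.

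Set side by side, the 3′ end held the stronger site at 8 of the 9 genes in the pooled list, with plk-1 the exception. A zone without a site counted as the weaker one, as at the starts of cdk-1, air-2 and wee-1.3 in the pooled list. Of the protein-coding genes longer than 1000 bp with a site in either zone, 61.8% had the stronger one at the 3′ end in the pooled list. In replicate 1 it was 6 of 9 genes, against 61.0% of such genes, with cya-1, air-2 and plk-1 the other way. In replicate 2 it was 7 of 9, against 61.5%, with cye-1 and plk-1 the other way. In the IDR list it was 4 of 4, against 66.3%, but none of the 4 had a peak at the start, so no strengths were compared there. For the genes with a site in both zones, the median ratio of 3′ end to start signal was 2.03 over 6 genes in the pooled list, 2.98 over 7 in replicate 1 and 1.75 over 7 in replicate 2. Over all such protein-coding genes the median ratios were 1.14, 1.13 and 1.14. The 4 genes cdk-1, cyb-1, cyb-3 and air-1 had the stronger site at the 3′ end in every list, with ratios from 1.75 to 6.30 in the replicates.

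**Figure D3:**
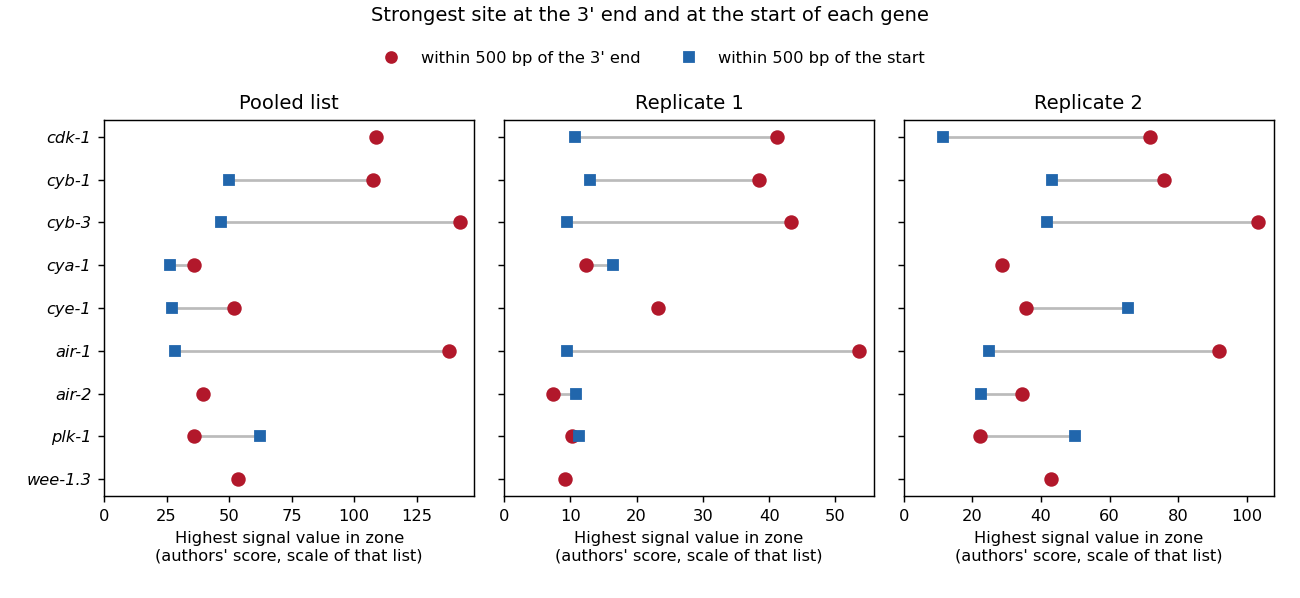
Highest signal value within 500 bp of the 3′ end (circles) and of the start (squares) for each gene, in the pooled list and in each replicate, on the scale of each list; a missing symbol means that no site was listed. The circles of cdk-1, cyb-1, cyb-3 and air-1 lie right of their squares in every panel where both exist, and the circle of plk-1 lies left of its square in all 3.

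By their strongest site the 9 genes ranked from 327 (cyb-3) to 5252 (cya-1) among 19985 protein-coding genes in the pooled list, with a median rank of 726, against a median of 9992 over all of them. The median rank was 1259 in replicate 1 and 921 in replicate 2. The 5 genes with an IDR peak ranked from 208 to 1259 in replicate 1 and from 303 to 921 in replicate 2. The other 4 ranked from 2079 to 7240 and from 2049 to 4997, so the same 5 genes were above the same 4 in both replicates. The pooled list contains the reads of both replicates, so this split is not independent of them. cye-1 differed most in proportion, with rank 1259 in replicate 1 and 303 in replicate 2, and plk-1 least, with 2079 and 2049.

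**Figure D4:**
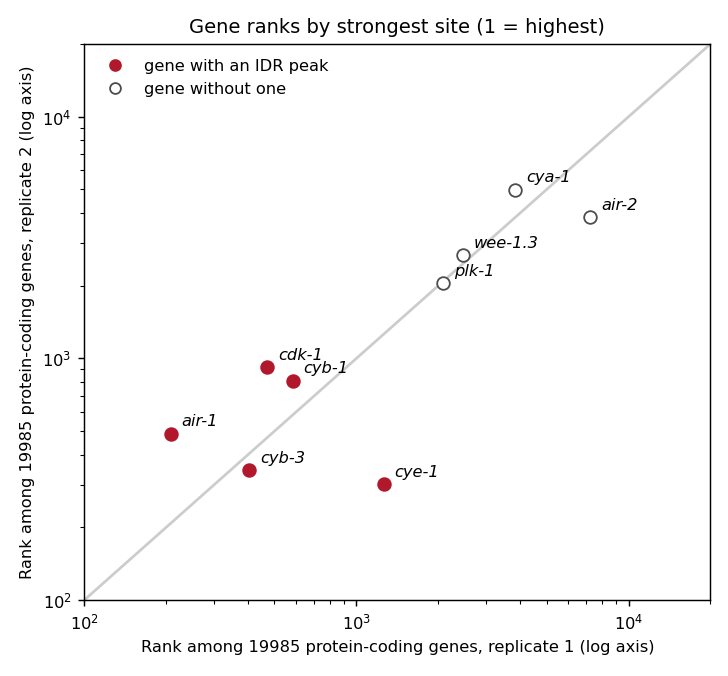
Rank of each gene by its strongest site among 19985 protein-coding genes in replicate 1 (horizontal) and replicate 2 (vertical), both on log axes with 1 the highest; the line marks equal ranks. Filled points, the 5 genes with an IDR peak, lie at smaller ranks than the 4 open points on both axes.

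All 5 IDR summits lay within 100 bp of a summit of each replicate, as given above. They were called on the pooled reads, which hold both replicates, and the IDR list holds the strongest pooled sites. Much of this match was thus set in advance, though 87.8% and not all of the 1212 IDR summits at protein-coding genes showed it. Distances from 1 replicate to the other are a different measure and covered all replicate sites at the 9 genes. Of the 33 replicate 1 summits at the 9 genes, 13 lay within 100 bp of a replicate 2 summit, or 39.4%, against 29.2% of replicate 1 summits at all protein-coding genes. Of the 36 replicate 2 summits, 13 lay within 100 bp of a replicate 1 summit, or 36.1%, against 23.6%. At the 3′ ends of cdk-1, cyb-1, cyb-3 and air-1 the strongest summit of replicate 1 lay 134, 122, 117 and 76 bp past the 3′ end. That of replicate 2 lay 66 and 42 bp past it at cdk-1 and cyb-1, and 42 and 48 bp before it, in the 3′ UTR, at cyb-3 and air-1. Replicate 1 was thus further downstream at all 4, by 68 to 159 bp, and by more than 100 bp at air-1 and cyb-3. Over the 874 protein-coding genes longer than 1000 bp with an IDR peak and a site of both replicates at the 3′ end, replicate 1 was further downstream at 52.6%, with a median difference of 5 bp. For the 453 on the plus strand, where all 4 genes lie, these values were 49.7% and 0 bp. For the 421 on the minus strand they were 55.8% and 12 bp.

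The 201 bases around the 5 IDR summits varied in base composition. Their G and C content was 31.3% at cdk-1, 36.3% at cyb-3, 41.3% at air-1, 42.8% at cyb-1 and 47.8% at cye-1, where the tRNA gene lies. The median was 39.3% over all 1319 nuclear IDR summits and 36.8% over 29977 nuclear pooled summits.

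Of 60 other cell cycle genes, listed from general knowledge but with earlier results of these data known, 18 had an IDR peak, or 30%, against 8.23% of all protein-coding genes. The peak was at the 3′ end of 16 and at the start of 5, with 3 genes having both, against 5.41% and 2.96% of all protein-coding genes at the 3′ end and at the start. The 60 genes had a median span of 3417 bp, up to 26804 bp, against a median of 2026 bp over all protein-coding genes. A longer gene has a longer window, and these shares were not matched for span. When a summit was counted only for the nearest protein-coding gene, 11 of the 60 had an IDR peak, against 5.53%. The strongest was at cdk-5, the gene of a kinase best known from neurons, with a signal of 324 and the summit 23 bp past the 3′ end. That summit also lay 12 bp past the 3′ end of ant-1.1, a mitochondrial ADP/ATP carrier gene, and 156 bp upstream of the start of kel-3. One summit, with a signal of 183, was counted for both icp-1, the INCENP gene of the complex that holds AIR-2, and tpxl-1, which encodes the activator of AIR-1. It lay 340 bp past the 3′ end of icp-1 and 224 bp inside the start of tpxl-1.

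Next came cks-1, the gene of a small subunit of cyclin-dependent kinases, with 163 at 25 bp past the 3′ end and no other gene within 500 bp. The retinoblastoma gene lin-35 had 130 in its 3′ UTR and 114 upstream of its start, and the checkpoint kinase gene chk-1 had 128 past the 3′ end. Summits past the 3′ end followed at emb-27, an anaphase-promoting complex gene (110), at bub-1, a spindle checkpoint kinase gene (108), and at gsp-2, a phosphatase gene (107). mat-1, also of the anaphase-promoting complex, had 99.1 past the 3′ end and 74.3 at the start. Other genes lay within 500 bp of most of these summits, including ztf-15 at bub-1 and kap-1 at gsp-2, whose starts were 87 and 40 bp downstream of the summits. The summits past the 3′ ends of chk-1, emb-27 and mat-1 lay inside other genes, namely gid-7, pch-2 and Y110A7A.9. cdc-25.1, of a phosphatase family that removes inhibitory phosphates from cyclin-dependent kinases, had a summit of 92.1 located 352 bp past the 3′ end. That summit lay inside the gene K06A5.2. The summit at cdk-2, the gene of the partner of CYE-1, had a signal of 78.5 and lay 400 bp past the 3′ end. The genes cdc-25.1 and cdk-2 were chosen after their values were seen, and emb-30, ify-1 and mbk-2 had higher signals than both. The peaks of ify-1 (96.9) and mdf-1 (89.7) were at the start only.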

How the data were processed

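Chromatin immunoprecipitation was sequenced in 2 biological replicates, and the authors deposited lists of sites called on alignments to ce11 and, for replicates and pooled reads, with a control alignment, per the file headers and listings. The value used is the deposited signal score of each site, on a scale that is not stated. Neither aligner nor caller, nor the level of the IDR threshold, is named in the sources used here. The deposited lists on ce10 were not used, since no annotation of that build was used here.

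Genes were those of Ensembl release 115 on WBcel235, with missing symbols taken from RefSeq. Positions count from 1, and a summit is the start of the interval plus its offset. Genes were scored with Python 3.11.15, pandas 2.3.3 and numpy 2.4.6, and the scoring was tested on simulated data, where all 200 genes were placed correctly. Each gene whose window held a summit was counted, so neighbours can share a site. Flanks of 250 and 1000 bp, interval overlap of at least 1 bp, the nearest gene only, stronger sites and single replicates were alternatives. Leaving out sites near tRNA, snoRNA or snRNA genes was added after the data were seen. The 9 genes and the list of 60 were chosen with earlier results of these data known. Of the 60, the genes with an IDR peak were named, up to 10 by signal, and cdc-25.1 and cdk-2 were added after their values were seen. No test was run, because 1 group without a control list gives no comparison. Some sequence is not reported here.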

Additional observations from a re-analysis of the deposited data

How the results depend on the processing

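The count of 5 genes with an IDR peak stayed at 5 with flanks of 250 or 1000 bp, with any overlap of the called interval, with the 670 strongest IDR peaks and with the strongest 1341 sites of either replicate alone (5 to 5 without 1 replicate). The 1000 bp flank and the overlap could only raise the count, and the ranks given above fix it for the 670 peaks. The count was 4 without sites near tRNA, snoRNA or snRNA genes, which removed cye-1, against 6.83% of all protein-coding genes. Counting each summit only for the nearest protein-coding gene gave 3, namely cyb-1, cye-1 and air-1, because T05G5.4 holds the summit at cdk-1 and fbxa-199 ends on that at cyb-3. The count at the 3′ end was then 2 instead of 4, and that of the 60 other cell cycle genes 11 instead of 18. All protein-coding genes fell to 5.53% under that setting. The count at the start was 0 and became 1 (cye-1) with 1000 bp or any overlap, and ranged from 0 to 1 without 1 replicate, the 1 being cye-1 in replicate 2 alone. With those 670 peaks, 9 of the 60 other genes had a peak, against 4.28% of all protein-coding genes. All 9 genes kept a pooled candidate in every setting run. No paired analysis was possible because there is 1 group. Depth is unknown, so how it limits the weaker sites cannot be stated.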
